A study of Homo sapiens with 2 samples.

Results

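The lysosome and autophagy genes described here are 31 named genes of the 16387 measured in both libraries of a single-cell RNA-seq study of MCF10A, an immortalised and non-tumorigenic human breast epithelial line. They were chosen by name, as genes of lysosomal enzymes, membrane proteins and proton pumps and of the autophagy machinery, and not by a threshold on any measured value. The choice was made with earlier results of these data known, so shares of members set beside all genes are not independent of it. All 31 were in both count tables and all 31 passed the filter on low counts. Epidermal growth factor (EGF) was given to the cells, and a MEK inhibitor or a PI3K inhibitor was added to some of them 15 h later. The tested conditions were EGF plus MEK inhibitor and EGF plus PI3K inhibitor, each harvested at 20 h and 30 h. They were set against EGF alone at the same hour and against each other. EGF alone at 15 h and at 30 h was set against unstimulated cells, 20 h against 15 h, and 30 h against 20 h. All conditions share the one cell line, and the labels used here name neither the compounds nor their doses. The 8 conditions of a replicate carried antibody sample tags and were pooled into 1 library, and the 2 libraries were 2 biological replicates.

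Lysosomes are acidic organelles in which cathepsins, glycosidases and lipid-handling proteins break down material brought in by endocytosis or by autophagy. A vacuolar proton pump (V-ATPase) acidifies the lumen, and heavily glycosylated membrane proteins such as LAMP1 and LAMP2 line it. In autophagy, the kinase ULK1 starts the process, WIPI1 binds the growing membrane, ATG8 proteins (the LC3 and GABARAP families) are attached to that membrane, and receptors such as SQSTM1 (p62) tie cargo to them. TFEB drives many lysosomal genes by binding a CACGTG-type sequence, and its entry into the nucleus is restrained by phosphorylation by mTORC1 and by ERK. FOXO factors, which the PI3K-AKT branch keeps out of the nucleus, are known activators of several autophagy genes.

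Promoters are shown because CACGTG, the type of sequence through which TFEB drives many lysosomal genes, was present in a larger share of members than of tested genes. Many members are lysosomal genes chosen by name, so this excess is not independent of the choice. In the RefSeq promoter table (build GRCh38.p14, 250 bases before to 50 after each start), 23 of the 31 members were matched, with 35 promoters, and CTSB, HEXA, ASAH1, PSAP, LAMP2, ATP6V1H, ATP6V1A and ATP6V0E1 were not. CACGTG, which reads the same on both strands, was present in a promoter of 8 of those 23 members (34.8%), against 13.0% of the 8727 tested genes and 8.78% of all 27305 genes in the table. Counted by promoter, 8 of the 35 member promoters held it, against 7.26% of all 35116. The longer TCACGTGAC, which contains CACGTG and was searched on both strands, was present in 5 of 23 (21.7%), against 2.17% of the tested genes. GTAAACA, searched on both strands as the core FOXO-type sequence, was found in 1 member (CTSL), against 3.46% of the tested genes, and the CREB-type TGACGTCA in 1 (GABARAPL1), against 4.07%. The LAMP1 promoter, chr13:113296989-113297288 on the plus strand, holds 6 copies of CACGTG, in capitals here.
LAMP1: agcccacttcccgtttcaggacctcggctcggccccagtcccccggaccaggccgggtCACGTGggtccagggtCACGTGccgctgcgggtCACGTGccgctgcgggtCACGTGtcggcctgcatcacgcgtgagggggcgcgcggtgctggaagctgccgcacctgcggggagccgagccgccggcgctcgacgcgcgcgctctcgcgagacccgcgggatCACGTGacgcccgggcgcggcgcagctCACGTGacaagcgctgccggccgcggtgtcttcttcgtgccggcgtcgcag
One 30-base window from each of the other 7 carriers follows, with CACGTG again in capitals.
CTSA: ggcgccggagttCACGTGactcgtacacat
CTSD: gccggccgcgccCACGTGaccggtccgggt
GAA: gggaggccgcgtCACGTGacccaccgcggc
NEU1: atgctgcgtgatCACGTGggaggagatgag
CD63: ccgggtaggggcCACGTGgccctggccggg
MCOLN1: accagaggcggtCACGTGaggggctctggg
ATP6V0D1: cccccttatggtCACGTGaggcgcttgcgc
The CTSA window lies at chr20:45891298-45891327 (plus strand). That of CTSD is at chr11:1763957-1763986 (minus strand). That of GAA is at chr17:80101493-80101522 (plus strand). That of NEU1 is at chr6:31862930-31862959 (minus strand). That of CD63 is at chr12:55729172-55729201 (minus strand). That of MCOLN1 is at chr19:7522571-7522600 (plus strand). That of ATP6V0D1 is at chr16:67481199-67481228 (minus strand).

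The 2 libraries held 2616 and 2221 cells, 33089090 and 28542571 unique molecular identifiers (UMIs, one per counted RNA molecule), and medians of 12259 and 12332 UMIs per cell, with 0 cell barcodes shared. UMIs were summed over the cells of each condition in each library, which gave 16 sums of between 29 and 616 cells. Levels below are CPM, each sum's counts scaled to a common library size after TMM normalisation, for library 1 and then library 2. One UMI was worth 4.41 CPM in the unstimulated sum of library 2 (29 cells), 1.42 CPM in its EGF 15 h sum and 0.12 to 0.84 CPM in the others. With MEK inhibitor 9 of 10 ERK output genes fell at 30 h. DUSP6, an ERK-induced phosphatase gene, was at 2.16 ± 0.217 CPM with MEK inhibitor and 22.5 ± 0.589 CPM with EGF alone at 30 h (SD, n = 2). TXNIP, a FOXO-responsive gene, was higher with PI3K inhibitor by 2.34 on the log2 scale at 20 h and by 2.07 at 30 h. Of 9 tested FOXO output genes, 5 were higher with PI3K inhibitor at 30 h (median 1.27) and 7 with MEK inhibitor (median 1.18), TXNIP among them at 0.58, so these genes also rose with MEK inhibitor. All 10 epithelial markers were in both tables and summed to 25465 to 27394 CPM with MEK inhibitor, 17560 to 22887 CPM with PI3K inhibitor and 12864 to 14215 CPM with EGF alone at 30 h. Of 8 leukocyte and macrophage markers, 4 were in both tables (PTPRC, CD163, TYROBP and AIF1 were not), and their sum was 8.21 to 8.52 CPM with MEK inhibitor, 1.49 to 2.43 CPM with PI3K inhibitor and 14.5 to 18.7 CPM with EGF alone at 30 h. Of 7 fibroblast markers, 3 were in both tables (COL1A2, COL3A1, LUM and PDGFRA were not), with sums of 23.4 to 54.1, 7.14 to 18.6 and 8.10 to 13.2 CPM in the same 3 conditions, mostly from DCN. The part of these shifts in the results was not tested.

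The mix of cell-cycle phases also moved with the inhibitors. Cells called G1 from the S phase and G2/M gene lists made up 50.4% ± 22.7 with MEK inhibitor, 80.0% ± 9.07 with PI3K inhibitor and 17.7% ± 10.7 with EGF alone at 30 h (SD, n = 2). At 20 h the shares were 44.0%, 70.7% and 32.2%, and unstimulated cells stood at 92.8%. A sum over cells cannot separate a change inside each cell from a change in the mix of cells, so values from G1-called cells alone stand beside the results. Those rest on few cells in EGF alone at 30 h, 62 and 35.

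With MEK inhibitor for the last 15 of the 30 h, most of the lysosomal and autophagy genes rose, across enzymes, membrane proteins, proton pump subunits and autophagy factors. Of 31 members, 18 (58.1%) rose and 0 fell, against 18.9% of all 11147 tested genes that rose and 19.0% that fell (edgeR quasi-likelihood test, library as a block, adjusted p under 0.05). The members' median log2 fold change was 0.37, against 0.01 over all tested genes. In the same fit 19 members had an unadjusted p under 0.05, all higher, and DESeq2 called 16 higher and 0 lower. Without the replicate block 9 of the 18 calls remained, those of GAA, PSAP, GRN, ATP6V0D1, TFEB, ULK1, WIPI1, SQSTM1 and GABARAPL1. With library totals in place of TMM, 11 members rose and 2 (CTSB and CTSL) fell, and the median over all genes moved to -0.16, with the members' median at 0.20.

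PSAP, the precursor of the saposins that help enzymes reach sphingolipids, had 139 and 141 CPM with MEK inhibitor at 30 h, against 69.0 and 78.5 CPM with EGF alone. The inhibitor sums lay well above those of EGF alone in both libraries, and the log2 difference was 0.92 (SE 0.10, adjusted p 6.7e-11). CTSD, the aspartic cathepsin, had 356 and 392 CPM with MEK inhibitor, against 213 and 273 CPM with EGF alone. Both inhibitor sums were above both EGF sums, and the log2 fold change was 0.63 (SE 0.10, adjusted p 2.1e-06). GRN, progranulin, a lysosomal protein needed for full hydrolase function, had 128 and 115 CPM with the inhibitor, against 75.8 and 81.0 CPM with EGF alone (log2 fold change 0.62, SE 0.11, adjusted p 1.1e-05).

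Of the other hydrolases, GAA, the acid glucosidase that digests glycogen, had 22 and 53 UMIs with MEK inhibitor at 30 h, or 5.51 and 6.13 CPM. In EGF alone it had 7 and 11 UMIs, or 1.84 and 1.86 CPM. The groups did not overlap and GAA rose by 1.65 on the log2 scale (SE 0.37), on a low count. GUSB (beta-glucuronidase) rose by 0.39, but stood at 0.67 without library 1 and 0.02 without library 2, and CTSA (protective protein, which stabilises NEU1) rose by 0.32. CTSB, CTSL, CTSZ, GLA, HEXA, NEU1 and ASAH1 did not pass the test, at -0.11 to 0.34, and neither did the cholesterol carriers NPC1 and NPC2, at 0.16 and -0.04.

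Among the 4 membrane proteins, 3 rose with MEK inhibitor at 30 h. LAMP2, a receptor in chaperone-mediated autophagy, had 48.9 and 51.1 CPM with the inhibitor, against 31.3 and 40.2 CPM with EGF alone. The log2 fold changes were 0.46 for LAMP2, 0.33 for LAMP1 and 0.37 for the tetraspanin CD63. MCOLN1, the lysosomal calcium channel, did not pass the test, at -0.06 (SE 0.17). Of the 4 V-ATPase subunits, ATP6V0D1 (0.46), ATP6V1H (0.48) and ATP6V0E1 (0.22) rose, and ATP6V1A, the catalytic subunit, missed the threshold at 0.38 (SE 0.16, adjusted p 0.061). With library totals the calls of LAMP1, LAMP2, ATP6V1H and ATP6V0E1 were lost, as were those of CTSA, GUSB and MAP1LC3B, none with a change of sign.

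TFEB and most of the autophagy genes rose too. TFEB had 9.02 and 13.1 CPM with MEK inhibitor at 30 h, against 5.27 and 5.74 CPM with EGF alone (log2 fold change 1.04, SE 0.24, adjusted p 0.00036). GABARAPL1, an ATG8 protein, had 45 and 162 UMIs with the inhibitor, or 11.3 and 18.7 CPM, against 16 and 34 UMIs, or 4.21 and 5.74 CPM, with EGF alone. Its inhibitor sums were both above both EGF sums, and it rose by 1.61 (SE 0.23, adjusted p 1e-07). WIPI1 had 34 and 59 UMIs with MEK inhibitor, against 8 and 11 UMIs with EGF alone, and rose by 1.90 (SE 0.35). ULK1 had 25 and 41 UMIs with MEK inhibitor, against 3 and 11 UMIs with EGF alone, and rose by 1.86 (SE 0.41). Both are low counts, with a single sum of 3 UMIs among them, and ULK1 stood at 1.15 without library 1. SQSTM1 had 157 and 122 CPM with MEK inhibitor, against 99.0 and 101 CPM with EGF alone (log2 fold change 0.46, SE 0.10; 0.27 without library 1), and MAP1LC3B, which encodes LC3B, rose by 0.37. GABARAP and GABARAPL2 did not pass the test, at 0.43 (SE 0.34) and 0.13 (SE 0.09).

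**Figure D1:**
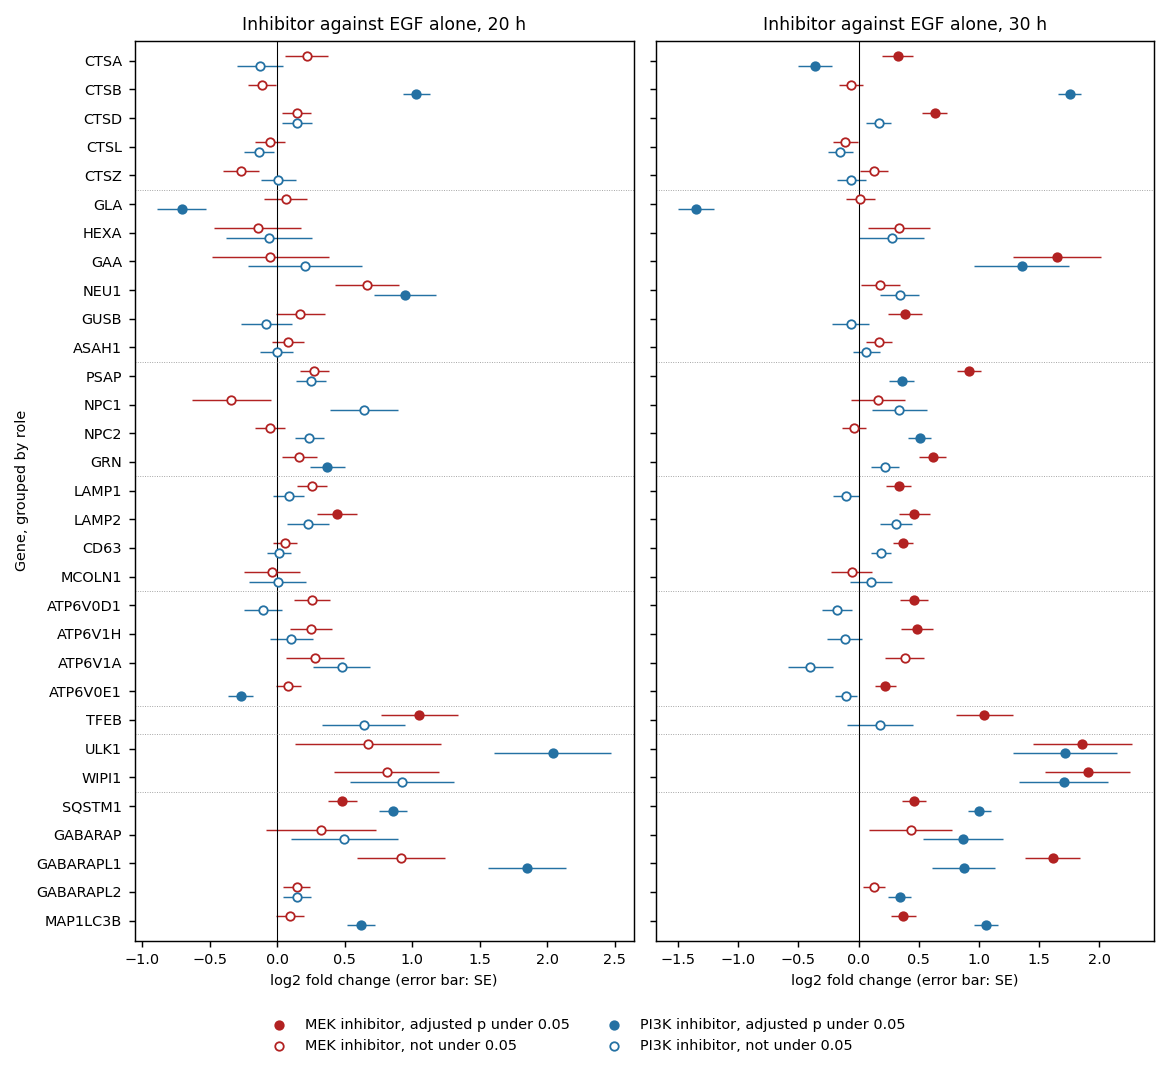
Log2 fold change of each of the 31 members (rows, grouped by role) for MEK inhibitor and PI3K inhibitor against EGF alone, at 20 h and 30 h, with SE bars; filled points have adjusted p under 0.05. At 30 h with MEK inhibitor 18 members are filled and all 18 lie right of 0, and with PI3K inhibitor 11 lie right and 2 left.

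With PI3K inhibitor at 30 h, CTSB, the autophagy initiation genes and the receptor and ATG8 genes rose, while GLA and CTSA fell. Of 31 members, 11 (35.5%) rose and 2 (6.45%) fell, against 19.7% and 20.0% of all tested genes. The members' median was 0.22, against 0.01 over all tested genes. With library totals, where the median over all genes moved to -0.22, the split became 8 higher and 9 lower and the members' median became -0.02, so the direction of the median depends on the scaling. The added falls were CTSL, CTSZ, LAMP1 and the 4 V-ATPase subunits. Without the replicate block 7 calls remained, those of CTSB, GLA, GAA, ULK1, WIPI1, SQSTM1 and MAP1LC3B.

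CTSB, a cysteine cathepsin, had 465 and 497 CPM with PI3K inhibitor at 30 h, against 129 and 155 CPM with EGF alone. Every inhibitor sum stood far above both EGF sums, and the log2 difference was 1.76 (SE 0.10, adjusted p 3.3e-21). GLA, the galactosidase lost in Fabry disease, had 11.4 and 18.5 CPM with PI3K inhibitor, against 34.5 and 43.2 CPM with EGF alone. Its inhibitor sums were both below the EGF sums, and it fell by 1.35 on the log2 scale (SE 0.15, adjusted p 8.9e-11). CTSA also fell, with 22.8 and 28.9 CPM with PI3K inhibitor, against 35.0 and 32.7 CPM with EGF alone (log2 fold change -0.36, adjusted p 0.04). NPC2, which hands cholesterol to NPC1, had 257 and 194 CPM with PI3K inhibitor, against 197 and 125 CPM with EGF alone. The library 2 inhibitor sum lay below the library 1 sum of EGF alone, so the groups overlapped across libraries but not within them (log2 fold change 0.51, SE 0.10, adjusted p 2.1e-05). PSAP rose by 0.36, a call lost with library totals, and GAA by 1.35. Without library 1 CTSA stood at -0.18, and without library 2 CTSA stood at -0.61 and GAA at 0.84.

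All 5 genes of the receptor and ATG8 group rose with PI3K inhibitor at 30 h. SQSTM1 had 203 and 198 CPM with the inhibitor, against 99.0 and 101 CPM with EGF alone, and its log2 difference was 1.00 (SE 0.10, adjusted p 3.3e-12). MAP1LC3B had 186 and 140 CPM with the inhibitor, against 84.5 and 70.7 CPM with EGF alone, and its log2 difference was 1.06 (SE 0.10, adjusted p 9.7e-13). In both genes the 2 groups were clearly apart. GABARAP rose by 0.87, GABARAPL1 by 0.87 and GABARAPL2 by 0.34, and the calls of GABARAP and GABARAPL2 were lost with library totals. ULK1 had 16 and 33 UMIs with PI3K inhibitor, against 3 and 11 UMIs with EGF alone, and rose by 1.72 (SE 0.43). WIPI1 rose by 1.70 (SE 0.37). Without library 2 WIPI1 stood at 1.13 and GABARAP at 0.51. TFEB did not pass the test, at 0.18 (SE 0.28), and none of the 4 membrane proteins or the 4 V-ATPase subunits did.

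**Figure D2:**
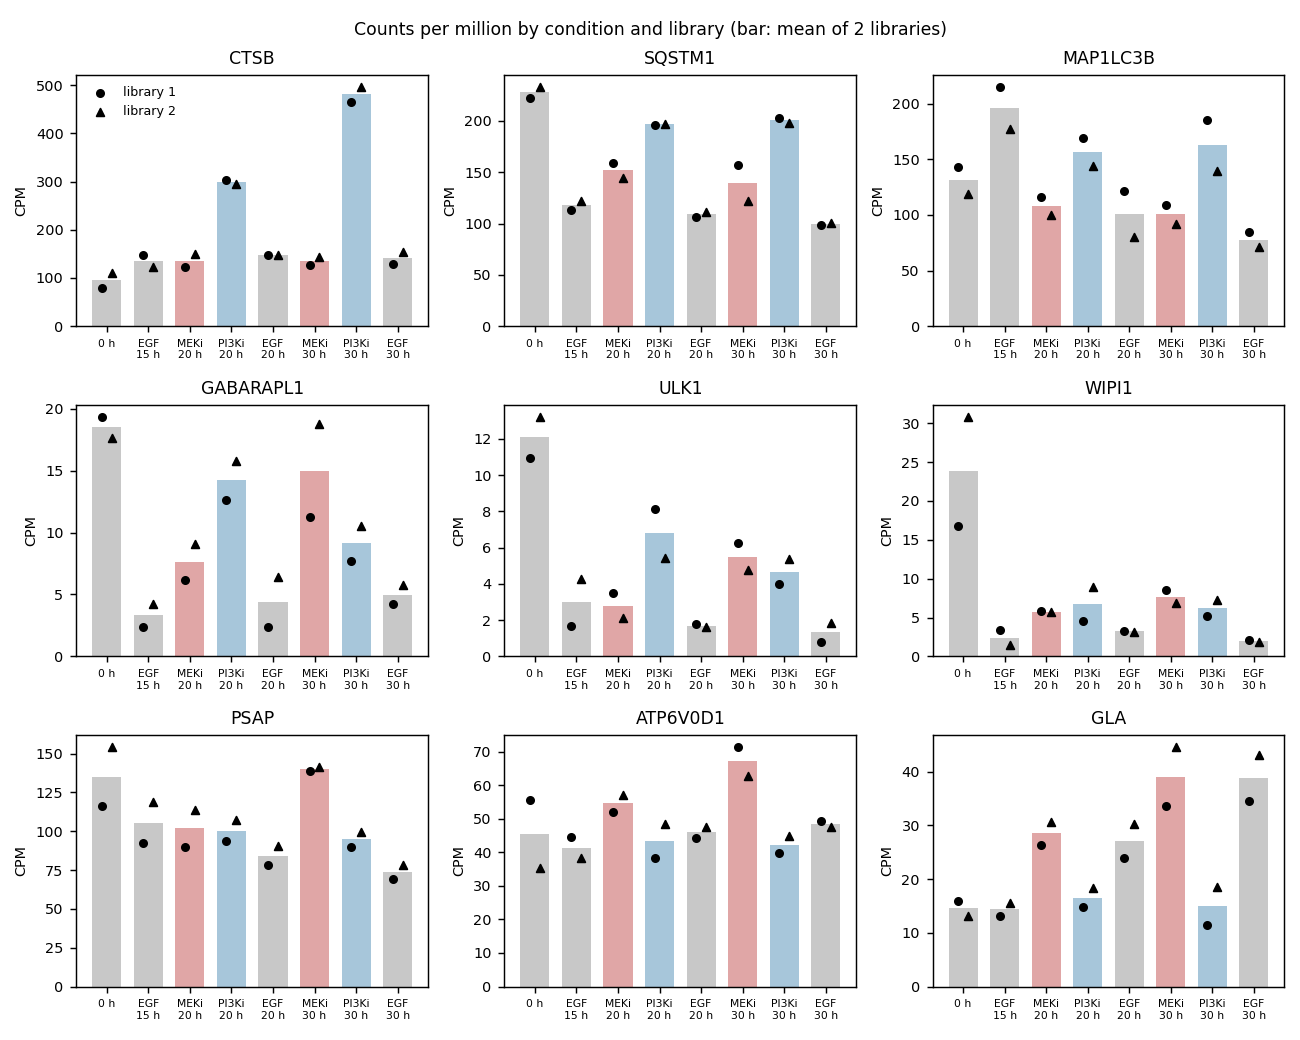
CPM (vertical axes, from 0) of 9 members in each of the 8 conditions; circles are library 1, triangles library 2 and bars the mean of the 2 libraries (MEKi and PI3Ki, inhibitor conditions; 0 h, unstimulated). CTSB stands at 465 and 497 CPM with PI3K inhibitor at 30 h, above every other condition, and GLA at 11.4 and 18.5 CPM.

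At 20 h, 5 h after the inhibitors were added, fewer members had moved. MEK inhibitor raised 3 (9.68%) and lowered 0, against 4.80% and 7.15% of all tested genes. These were TFEB, with 8.92 and 12.7 CPM against 4.65 and 5.75 CPM in EGF alone (log2 fold change 1.05), SQSTM1 (0.48) and LAMP2 (0.44). The median over members was 0.16, against 0.01 over all genes. None of the 3 calls remained without the replicate block, and LAMP2 also lost its call with library totals and stood at 0.66 without library 1 and 0.24 without library 2. In the blocked edgeR fit 8 members had an unadjusted p under 0.05, all higher, and DESeq2 called 2 higher and 0 lower.

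PI3K inhibitor at 20 h raised 7 members (22.6%) and lowered 2 (6.45%), against 11.4% and 11.9% of all tested genes, with medians of 0.20 for members and 0.00 for all genes. CTSB had 304 and 295 CPM with the inhibitor, against 147 and 147 CPM with EGF alone, and rose by 1.03 (SE 0.10, adjusted p 1.8e-11). SQSTM1 had 196 and 197 CPM with the inhibitor, against 107 and 112 CPM with EGF alone, and rose by 0.86. In both genes the groups were apart by far more than the libraries differed. GABARAPL1 had 45 and 32 UMIs with PI3K inhibitor (12.6 and 15.8 CPM), against 15 and 20 UMIs (2.40 and 6.38 CPM) with EGF alone, and rose by 1.85 (SE 0.29). ULK1 rose by 2.04 (SE 0.43), with 8.14 and 5.44 CPM (29 and 11 UMIs) with the inhibitor against 1.76 and 1.60 CPM (11 and 5 UMIs) with EGF alone. MAP1LC3B rose by 0.62, NEU1, a sialidase, by 0.95, and GRN by 0.37. GLA fell by 0.71 and ATP6V0E1 by 0.27. Without the replicate block 4 calls remained, those of CTSB, ULK1, SQSTM1 and GABARAPL1.

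The change between 20 h and 30 h was tested as the difference of the effects at the 2 times. For MEK inhibitor it was called in 2 members, both higher, against 2.90% of all genes higher and 2.63% lower. PSAP's effect was larger at 30 h by 0.64 (SE 0.15, adjusted p 0.0028) and CTSD's by 0.49 (SE 0.15, adjusted p 0.044; 0.31 without library 1). For PI3K inhibitor it was called in 1 member, against 2.40% of all genes higher and 3.25% lower. CTSB's effect was larger at 30 h by 0.73 (SE 0.14, adjusted p 0.00026). With library totals the CTSD call was lost and, for PI3K inhibitor, GLA and ATP6V1A were called lower.

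Both inhibitors were set against the same EGF sums, so the number of genes moved by both is not given as a result, and the inhibitors were compared directly. At 30 h, PI3K inhibitor left 4 members (12.9%) higher and 13 (41.9%) lower than MEK inhibitor, against 20.3% and 21.2% of all tested genes. The members' median was -0.19, against 0.01 over all genes. The 4 higher members were CTSB (1.82, SE 0.09, adjusted p 2.8e-22), MAP1LC3B (0.68), SQSTM1 (0.55) and NPC2 (0.54). Among the cathepsins and glycosidases, GLA had 11.4 and 18.5 CPM with PI3K inhibitor, against 33.6 and 44.6 CPM with MEK inhibitor, and was lower by 1.37 on the log2 scale. CTSA, CTSD and GUSB were lower as well, at -0.68, -0.46 and -0.45.

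All 4 V-ATPase subunits were lower with PI3K than with MEK inhibitor at 30 h. ATP6V1A had 13.9 and 12.8 CPM with PI3K inhibitor, against 22.8 and 22.7 CPM with MEK inhibitor (log2 fold change -0.78, SE 0.17). ATP6V0D1 had 39.7 and 45.0 CPM with PI3K inhibitor, against 71.4 and 62.8 CPM with MEK inhibitor (-0.64, SE 0.12). In both the groups did not overlap. ATP6V1H stood at -0.60 and ATP6V0E1 at -0.33. TFEB had 5.96 and 6.49 CPM with PI3K inhibitor, against 9.02 and 13.1 CPM with MEK inhibitor, and was lower by 0.87. PSAP (-0.56), GRN (-0.40), LAMP1 (-0.44) and GABARAPL1 (-0.74) were also lower. Without library 1 CTSD stood at -0.16 and GRN at -0.22, and without library 2 CTSD stood at -0.81, GRN at -0.61 and TFEB at -0.56. No call differed in sign with library totals, where 4 were higher and 14 lower. Without the replicate block 9 of the 17 calls remained, those of CTSA, CTSB, GLA, PSAP, ATP6V0D1, ATP6V1A, TFEB, SQSTM1 and MAP1LC3B.

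**Figure D3:**
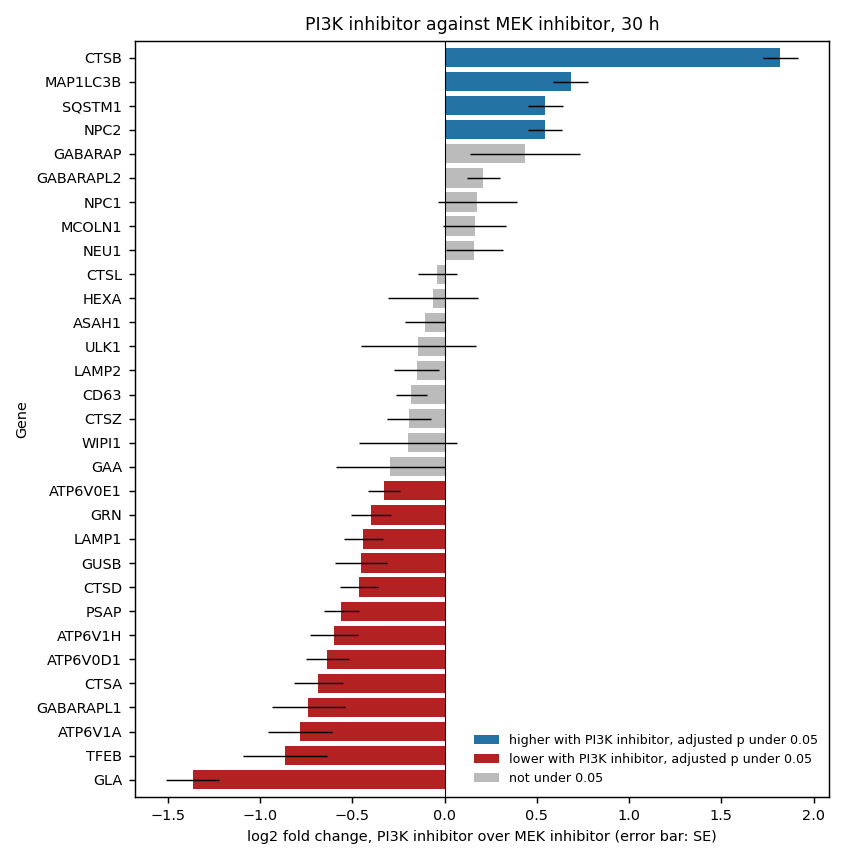
Log2 fold change of PI3K inhibitor over MEK inhibitor at 30 h (horizontal axis) for the 31 members (vertical axis), with SE bars; blue bars are higher with PI3K inhibitor, red bars lower and grey bars have adjusted p of at least 0.05. CTSB stands at 1.82 at one end and GLA at -1.37 at the other, with 4 members higher and 13 lower.

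At 20 h the direct comparison gave 6 members higher (19.4%) and 2 lower (6.45%) with PI3K inhibitor, against 10.5% and 11.2% of all tested genes. CTSB had 304 and 295 CPM with PI3K inhibitor, against 122 and 150 CPM with MEK inhibitor (log2 fold change 1.14, SE 0.10). ULK1 (1.37), NPC1 (0.98), GABARAPL1 (0.93), MAP1LC3B (0.53) and SQSTM1 (0.37) were higher, and GLA (-0.77) and ATP6V0E1 (-0.35) lower. Without the replicate block CTSB alone remained. NPC1 stood at 0.26 without library 1 and 1.73 without library 2.

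Within G1-called cells alone, part of these differences was smaller or no longer passed the test, and part was larger. For MEK inhibitor against EGF alone at 30 h, all 18 called members kept their sign and 3 were also called, CTSD (0.57), PSAP (0.70) and SQSTM1 (0.84). GABARAPL1 stood at 0.67 in G1-called cells and TFEB at 0.56. For PI3K inhibitor at 30 h, 11 of 13 kept their sign and 4 were also called, CTSB (1.97), NPC2 (0.44), SQSTM1 (1.14) and MAP1LC3B (0.84). PSAP (-0.18) and GABARAPL1 (-0.67) changed sign without passing the test, and ULK1 (0.57), GAA (0.37) and GABARAP (0.12) were smaller. The members' median was -0.03 in G1-called cells, against 0.22 over all cells, so its direction depends on the cells used as well as on the scaling. For PI3K against MEK inhibitor at 30 h, where both conditions have more G1-called cells, 16 of 17 were also called in G1-called cells, all but TFEB (-0.79). The members' median in that comparison was -0.48 in G1-called cells, against -0.19 over all cells. For both inhibitors at 20 h, and between them, all called members kept their sign in G1-called cells. Also called there were 1 of 3 for MEK inhibitor (SQSTM1, 0.50), 6 of 9 for PI3K inhibitor and 4 of 8 for PI3K against MEK inhibitor. TFEB (0.84) and LAMP2 (0.61) with MEK inhibitor at 20 h did not pass. Fewer cells enter these sums, and how much of each lost call comes from that was not tested.

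**Figure D4:**
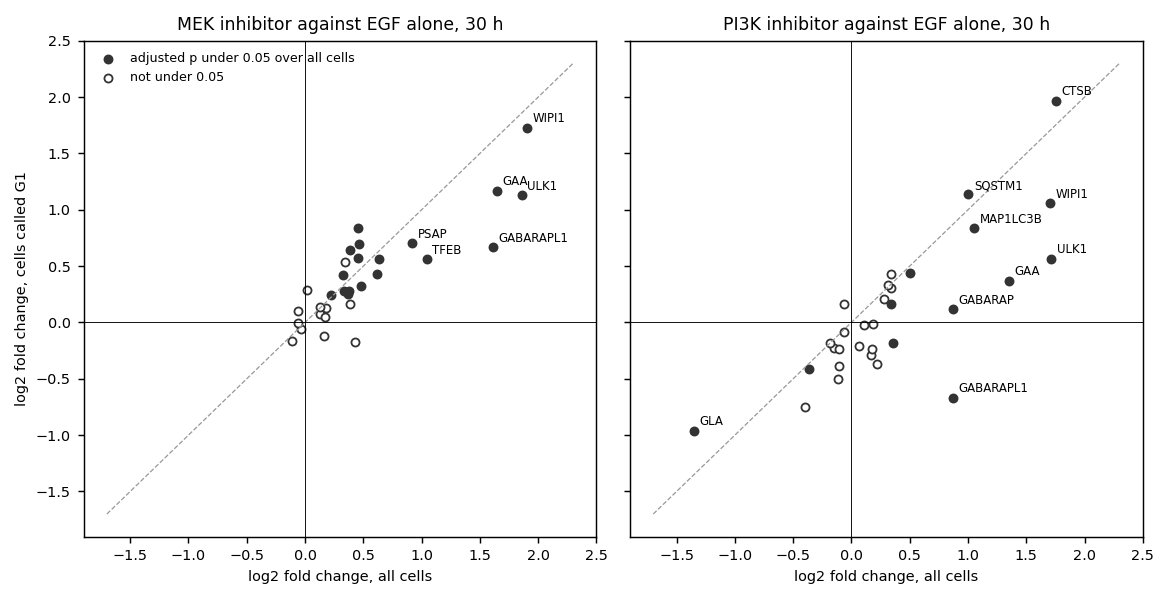
Log2 fold change of each member over all cells (horizontal axis) against that in G1-called cells alone (vertical axis), for MEK inhibitor and PI3K inhibitor against EGF alone at 30 h; filled points have adjusted p under 0.05 over all cells and the dashed line marks equal values. CTSB, SQSTM1 and MAP1LC3B with PI3K inhibitor lie near the dashed line, at 1.97, 1.14 and 0.84 in G1-called cells, and GABARAPL1 lies below 0 at -0.67.

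EGF itself moved many of these genes, with most of the autophagy members lower after it was given. After 15 h of EGF, 3 members (9.68%) rose and 10 (32.3%) fell relative to unstimulated cells, against 14.1% and 13.9% of all tested genes, with medians of -0.34 for members and 0.02 for all genes. With library totals, which moved the median over all genes to 0.21, 6 rose and 10 fell. In G1-called cells all 13 called members kept their sign and 12 were also called, with a members' median of -0.28. Library 2 gave 25 unstimulated and 42 EGF 15 h cells to those sums. SQSTM1 had 222 and 234 CPM in unstimulated cells, 113 and 122 at 15 h, 107 and 112 at 20 h and 99.0 and 101 at 30 h of EGF. Every EGF sum was below both unstimulated sums, and SQSTM1 fell by 0.96 by 15 h (SE 0.14, adjusted p 1.9e-07). GABARAPL1 fell by 2.83 (SE 0.45), with 2.37 and 4.25 CPM at 15 h against 19.4 and 17.6 CPM in unstimulated cells. The groups did not overlap, but the unstimulated and 15 h values of library 2 rest on 4 and 3 UMIs.

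ULK1 (-2.49), WIPI1 (-2.59), GAA (-1.77), GABARAP (-1.68), GRN (-1.04), NPC2 (-0.87), CTSD (-0.81) and GABARAPL2 (-0.65) also fell by 15 h. In library 2 the unstimulated and 15 h sums held 3 and 3 UMIs of ULK1 and 7 and 1 of WIPI1. They held 3 and 5 UMIs of GAA and 2 and 2 of GABARAP, so these 4 falls rest mostly on library 1. CTSB (0.71), CTSZ (0.59) and MAP1LC3B (0.59) rose. MAP1LC3B was at 143 and 119 CPM in unstimulated cells, 215 and 177 at 15 h, 121 and 80.4 at 20 h and 84.5 and 70.7 at 30 h. It stood highest at 15 h in both libraries and fell again by 0.94 between 15 h and 20 h (SE 0.10, adjusted p 2.1e-09). Leaving out the 2 sums of fewer than 100 cells, the unstimulated and 15 h sums of library 2, left 1 sum in each of those conditions. No calls are given for that setting here. The members' median against unstimulated cells was then -0.33 at 15 h and -0.19 at 30 h. Without library 1, the 15 h values were 0.14 for CTSB, -0.52 for CTSD, -0.85 for GAA, -0.27 for NPC2, -1.53 for ULK1 and -4.02 for WIPI1. Fibroblast markers summed to 7.08 to 18.3 CPM at 15 h of EGF and 88.1 to 116 CPM in unstimulated cells, and DCN fell by 2.76 on the log2 scale. Leukocyte and macrophage markers summed to 24.1 to 25.4 CPM at 15 h and 24.4 to 39.7 CPM in unstimulated cells, and the part of these markers in the EGF results was not tested.

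Later in the EGF course fewer members moved. Between 15 h and 20 h, 3 rose (CTSA, GLA and NPC2) and 1 fell (MAP1LC3B), against 3.44% and 1.65% of all tested genes. Between 20 h and 30 h, 3 rose (NEU1 by 1.07, GLA by 0.51 and NPC2 by 0.51) and MAP1LC3B fell by 0.38, against 4.51% and 3.29% of all genes. GLA was at 16 and 13.2 CPM in unstimulated cells, 13.2 and 15.6 at 15 h, 24.0 and 30.3 at 20 h and 34.5 and 43.2 at 30 h of EGF. Its level was higher at each step after 15 h in both libraries. At 30 h against unstimulated cells, 4 members were higher and 11 lower, against 17.7% and 16.2% of all genes, with medians of -0.13 for members and 0.02 for all genes. With library totals, where the median over all genes was 0.28, 5 were higher and 8 lower and the members' median was 0.14. WIPI1 stood at -3.35, ULK1 at -2.93, GAA at -2.85, GABARAPL1 at -2.15 and SQSTM1 at -1.15, and GLA at 1.19. The unstimulated sum of library 2 held 7 UMIs of WIPI1, 3 of ULK1, 3 of GAA, 4 of GABARAPL1 and 3 of GLA. The share of G1-called cells was 17.7% at 30 h of EGF and 92.8% in unstimulated cells. In G1-called cells 3 of the 15 calls remained (CTSB, WIPI1 and SQSTM1) and the members' median was 0.0048, with ULK1 at -1.75, GAA at -1.99, GABARAPL1 at -0.59 and GLA at 0.51, none of these 4 called. Without library 1, CTSZ stood at 0.34, GRN at -1.08 and GABARAPL2 at -0.27 in this comparison, and CTSA at 1.14 for 20 h against 15 h and MAP1LC3B at -0.18 for 30 h against 20 h.

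As a share of all UMIs the 31 members made up little and changed little. The share was 0.301% ± 0.0140 with MEK inhibitor, 0.295% ± 0.0285 with PI3K inhibitor and 0.270% ± 0.0168 with EGF alone at 30 h (SD, n = 2). The members were chosen with results known, so the shares are given as values with no test. Cells of the inhibitor conditions had fewer UMIs in all, 13277 with MEK inhibitor and 12425 with PI3K inhibitor on average, against 15084 with EGF alone. Per cell, member UMIs came to 37.1 and 43.0 with MEK inhibitor, 33.8 and 39.5 with PI3K inhibitor and 39.6 and 42.0 with EGF alone. The CPM values above are shares of these differing totals, and member UMIs per cell were lower with PI3K inhibitor than with EGF alone in both libraries.

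The CACGTG carriers are set beside the other matched members as a description. With MEK inhibitor at 30 h, 6 of the 8 carriers rose, with a median log2 fold change of 0.35, and 8 of the 15 without it rose, with a median of 0.39. With PI3K inhibitor at 30 h, 1 carrier (GAA) rose and 1 (CTSA) fell, with a median of 0.14, and 8 of the 15 others rose and 1 fell, with a median of 0.34. Set directly against MEK inhibitor at 30 h, PI3K inhibitor had 4 carriers lower (CTSA, CTSD, LAMP1 and ATP6V0D1), with a median of -0.37, and 3 of the others higher and 5 lower, with a median of -0.14. The difference between carriers and others was not tested.

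Other genes of these pathways, 157 on the lists and 137 of them tested, moved in the same comparisons. With MEK inhibitor at 30 h, 42 (30.7%) rose and 8 (5.84%) fell, and with PI3K inhibitor 27 (19.7%) rose and 14 (10.2%) fell. The first share of rises is above the 18.9% of all genes and the second equals the 19.7% of all genes. Other lysosomal hydrolases and cofactors gave 15 of 31 higher and 2 lower with MEK inhibitor. The rises were led by CTSH, a cathepsin with aminopeptidase action, at 38.4 ± 10.3 CPM with MEK inhibitor and 12.8 ± 0.252 CPM with EGF alone (SD, n = 2). SCPEP1, a serine carboxypeptidase, had 68.5 ± 2.99 CPM with the inhibitor and 29.1 ± 0.872 CPM with EGF alone. CTSC, the dipeptidyl peptidase cathepsin, fell, with 188.6 ± 19.7 CPM with MEK inhibitor and 301.5 ± 34.0 CPM with EGF alone. ATG101, a ULK1 complex subunit (-0.70), and ATP6V0B (-0.43) fell too.

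Of the other autophagy receptors, 8 of 10 were higher with each inhibitor at 30 h, both set against the same EGF sums, where 18.9% (MEK) and 19.7% (PI3K) of all genes were higher. With PI3K inhibitor, BNIP3L, a mitophagy receptor, had 54.3 ± 6.76 CPM, against 5.75 ± 1.92 CPM with EGF alone, a log2 fold change of 3.28 (SE 0.18). OPTN rose by 1.63 and CALCOCO2 by 0.97, both cargo receptors. With MEK inhibitor RETREG1, a receptor for the endoplasmic reticulum, rose by 2.10 (SE 0.22). At 20 h the count was 2 of 10 with MEK inhibitor and 7 of 10 with PI3K inhibitor, against 4.80% and 11.4% of all genes. The falls with PI3K inhibitor at 30 h were led by LAPTM4B, a lysosomal membrane protein (-1.14), PPT1, a lysosomal thioesterase (-0.73), and ATG3, the E2-like enzyme of ATG8 conjugation (-0.55). In the direct comparison at 30 h, PI3K inhibitor left 19 of the 137 (13.9%) higher and 34 (24.8%) lower than MEK inhibitor, against 20.3% and 21.2% of all genes. Lower were 12 of 31 other hydrolases and cofactors (2 higher) and 8 of 19 genes of MiT/TFE factors and lysosomal nutrient signalling. Of 13 other V-ATPase subunits, 4 were lower and 0 higher. Higher were 5 of 10 other autophagy receptors (2 lower) and 6 of 17 other membrane proteins (3 lower). Of 15 other initiation genes 3 were higher, near the 20.3% of all genes, and 0 were lower.

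Some members share positions or sequence with other genes, and any effect of this on their counts was not tested. In the GENCODE v29 annotation (GRCh38), SQSTM1 (chr5:179806398-179838078, plus strand) overlaps MRNIP and MGAT4B on the other strand, and WIPI1 (chr17:68420948-68457513, minus strand) overlaps ARSG. MAP1LC3B (chr16:87383995-87404779, plus strand) overlaps FBXO31, CTSA overlaps PLTP, and NPC2 overlaps ISCA2, again on the other strand. CTSD (chr11:1752752-1764573, minus strand) and GABARAP (chr17:7240014-7242770, minus strand) each overlap an unnamed locus on the same strand, as does HEXA. MCOLN1 overlaps the protein-coding gene PNPLA6 and NPC2 overlaps MIR4709, also on the same strand. GABARAPL1 (chr12:10212458-10223130, plus strand) is a paralog of GABARAP and GABARAPL2, and how reads of like sequence were assigned was not tested. CTSB, PSAP (chr10:71816298-71851375, minus strand) and GLA (chrX:101397803-101408012, minus strand) had no exon overlap with another gene. Whether reads of an overlapping gene entered a member's count was not tested.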

How the data were processed

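The deposited count tables hold UMI counts per gene and cell, and no normalization had been applied to them. The submitters' processing notes name Cell Ranger 3.0.2, Seurat and GRCh38, and the authors also deposited sample tag calls with the condition of each cell. Tag calls of more than one tag (4848 of 8641 and 2478 of 6161 barcodes) are absent from the count tables, no further doublet caller was run, and cells over 20000 UMIs were left out as an alternative. Cells in the tables had 3141 to 31090 UMIs, at least 1502 genes and mitochondrial shares up to 10.0%. UMIs were summed per library and condition (16 sums) and tested with edgeR 4.0.16 in R 4.3.3 (filterByExpr, TMM, quasi-likelihood F test, Benjamini-Hochberg adjustment over 11147 genes, threshold 0.05, two-sided) with condition and library as terms. The fit left 7 residual degrees of freedom. Log2 values without a library use a prior count of 2. An SE is the absolute log2 fold change divided by the square root of F. The test was also run on simulated counts, with the same spread for every gene and the same library shift in every condition. Such counts follow the model, so they cannot show how well the p-values hold in these data.

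The library is a block because each replicate's conditions were pooled in 1 library. Over 4702 genes with at least 20 CPM, deviations of the 8 conditions from their means correlated within a library with a median of 0.588 (0.281 to 0.677 over 28 pairs). With the library as a term, the p-values rest on how far condition differences varied between these 2 libraries after the library shift was removed. That spread was estimated over all 8 conditions and mostly shared across genes. The shared part carried 43.3 degrees of freedom on average, against 7 residual ones from each gene. CPM of UMI counts are not scaled by gene length and are not compared between genes. The members, the other pathway lists and the marker lists were chosen with earlier results of these data known. All members are described, and of the other pathway genes the 3 largest rises and falls per inhibitor comparison are named (past the threshold, at least 20 CPM, and one sign across libraries). DESeq2 1.42.0, library totals, no count filter, no block, G1-called cells, no sums under 100 cells, only the 20 h and 30 h conditions, and each library alone were the alternatives.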

Additional observations from a re-analysis of the deposited data

Results flagged for a closer look

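PSAP differed in its MEK inhibitor effect between the 2 times. Its log2 fold change against EGF alone was larger at 30 h than at 20 h by 0.643 (edgeR interaction term, adjusted p 0.0028), with the same sign in both libraries. The effect of MEK inhibitor on CTSD was likewise larger at 30 h than at 20 h, by 0.487 (adjusted p 0.044), and was lost with library totals. The effect of PI3K inhibitor on CTSB was larger at 30 h than at 20 h by 0.726 (adjusted p 0.00026). CTSB had 465 and 497 CPM with the inhibitor at 30 h, and 304 and 295 CPM at 20 h, against 129 and 155 CPM and 147 and 147 CPM with EGF alone at those times. None of the 3 differences was called without the replicate block.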

How the results depend on the processing

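Over the 12 comparisons 107 member calls were made, and all 107 had the same sign in both libraries. Of these, 14 were lost with DESeq2, 16 with library totals, 3 without the count filter and 55 without the replicate block. Restricting to G1-called cells lost 52 that kept their sign and 4 more that changed sign, and 51 remained. Leaving out cells over 20000 UMIs lost 11. Leaving out small sums left 1 sum in the unstimulated and the 15 h condition, so lost calls are not counted for it. Without the replicate block the members called became 0 for MEK inhibitor at 20 h, 9 at 30 h, 4 for PI3K inhibitor at 20 h, 7 at 30 h, 1 and 9 for PI3K against MEK inhibitor at 20 h and 30 h, 1 for EGF 20 h against 15 h, and 0 for EGF 30 h against 20 h and for both changes of effect with time. In G1-called cells the counts became 1 for MEK inhibitor at 20 h, 3 at 30 h, 4 for PI3K inhibitor at 30 h, 5 for PI3K against MEK inhibitor at 20 h, 1 for EGF 20 h against 15 h, 1 for 30 h against 20 h, 3 for 30 h against unstimulated, and 0 (MEK) and 2 (PI3K) for the changes of effect. In those cells the signs reversed for PSAP (-0.18) and GABARAPL1 (-0.67) with PI3K inhibitor at 30 h, MAP1LC3B at 30 h against 20 h of EGF (0.047) and GRN at 30 h of EGF against unstimulated (0.0048), and the members' share with MEK inhibitor at 30 h was 0.326%. The causes were not tested. With the 20 h and 30 h conditions alone, MEK inhibitor at 20 h gave 7 members and the PI3K change of effect 3, as that change also did with library totals (3) and without small sums (3). The MEK change of effect gave 1 with library totals and 1 without cells over 20000 UMIs, and EGF 30 h against 20 h gave 2 without those cells. Leaving out each library in turn leaves 1 sum per condition, so the members' share is given as a value, at 0.253% to 0.315% in unstimulated cells, 0.261% to 0.295% at 15 h of EGF, 0.262% to 0.278% at 20 h and 0.259% to 0.282% at 30 h, 0.265% to 0.299% and 0.291% to 0.311% with MEK inhibitor at 20 h and 30 h, and 0.264% to 0.294% and 0.275% to 0.315% with PI3K inhibitor. Of the 107 called log2 fold changes, 20 moved by over 1.5 times without library 1 and 10 without library 2, with no test possible on 1 sum per condition. By more than 1 SD between libraries, 31 and 20 moved. The values without a library are differences of log2 CPM with a prior count of 2, and the main values are edgeR estimates. WIPI1 with MEK inhibitor at 30 h stood at 1.90, and at 1.63 and 1.78 without library 1 and 2. The part of this difference of method in the moves was not tested. Depth limits ULK1, GABARAP, GAA, WIPI1, HEXA, TFEB and GABARAPL1 most, at 230 to 555 UMIs each over all sums.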
